A study of Mus musculus with 6 samples.

Results

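The proteins of the cytosolic ribosome are encoded by a large set of short, abundantly transcribed genes, here taken as the protein coding genes with an Rpl or Rps symbol, Rpsa and the stalk genes Rplp0, Rplp1 and Rplp2, without the S6 kinase and Rps19 binding protein genes. The annotation names 92 such genes. A mean expected count of at least 10 per library was required, which left 86 of the 53947 genes in the tables. Of these, 43 encode proteins of the large subunit, 31 of the small subunit and 3 of the acidic stalk, and these 77 are called core genes below. The other members were 5 paralogs (Rpl3l, Rpl22l1, Rpl36al, Rpl7l1 and Rps27l) and 4 intronless copies annotated as protein coding (Rpl10-ps3, Rpl35rt, Rps18-ps6 and Rps27rt). The 6 genes under the minimum were Rpl10l, Rpl27rt and Rps23rg1, listed at 0 in all libraries, and Rpl39l, Rpl9-ps6 and Rps4l. The rule uses symbols and mean counts and no difference between groups, but it was set with earlier results of these data known.

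RNA came from mouse quadriceps, 3 wild-type (WT) samples and 3 HSA-LR samples, from tissue that another laboratory gave to the study. In HSA-LR mice a transgene of the human skeletal actin gene holds roughly 220 CTG repeats. Its CUG-repeat RNA is made mainly in skeletal muscle, where it binds MBNL splicing factors, and the line models myotonic dystrophy type 1. Ribosomal RNA had been removed before the stranded total RNA libraries were made, and the repeat was the difference between groups given in the labels. The labels give neither age nor strain and do not say whether the samples came from separate animals or litters, so p-values measure only the spread between these samples.

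Ribosomes need their core proteins in nearly equal amounts, and cells keep the mRNAs of these proteins in step with each other. Most of these mRNAs begin with a C followed by a run of pyrimidines, the 5′ terminal oligopyrimidine (TOP) tract, through which LARP1 and the mTORC1 pathway govern their translation and stability. In skeletal muscle, ribosome content is known to change with growth, loading and atrophy.

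Tract sequences are printed for genes with log2 fold changes, described below, from 0.17 (Rpl4) to 1.12 (Rps12). Rpl36a, Rpl35a, Rps27a and Rpl13a (0.75, 0.74, 0.73 and 0.71) lie within the members' interquartile range. The pyrimidine run is in capitals from its first C and for at most 16 bases. In Rpl11 the run goes on past the capitals, and in Rps27a and Rpl4 a t precedes them. The sequences were read 5′ to 3′ on the gene's strand of GRCm39.

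Rps12: cgccggCCTTTTCCCCTgccgccg

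Rpl36a: ctctagCCTCTCTCTTTCCgagct

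Rpl35a: attttgCCTTTCCTTgttcctaaa

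Rps27a: tcggatCTTCCTTTCCgatccgcc

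Rpl13a: acaagaCCTCCTCCTTTCCCaggc

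Rpl11: gctatgCCTCTCTTTCCCCCTCtc

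Rpl4: acaagtCTTTCCTTTTCCTgtggg

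They lie at chr10:23663082-23663105 (minus strand, Rps12), chrX:133486424-133486447 (plus, Rpl36a), chr16:32876638-32876661 (plus, Rpl35a), chr11:29497848-29497871 (minus, Rps27a), chr7:44778150-44778173 (minus, Rpl13a), chr4:135780755-135780778 (minus, Rpl11) and chr9:64080646-64080669 (plus, Rpl4). In each gene the run of this kind nearest to the annotated start was taken. It began within 1 base of that start in Rpl35a and Rps27a and 46 bases from it in Rpl11. Whether these runs begin the mRNAs was not tested. In the 300 bases around the annotated start, the letters CTTTCC or CTTTTCC occurred on the gene strand in 34 of 82 members with introns (41.5%), against 16.9% of the windows of 12298 tested protein coding genes. The median log2 fold change, described next, was 0.57 in the 26 members with CTTTCC and 0.68 in those without. For CTTTTCC the order was the other way, with 0.68 in the 11 members with it and 0.61 in those without. On either strand, the letters CCGGAAG, a core of ETS family sites, were found in 36.6% of member windows and 16.8% of all windows, AAGATGGCG, as in YY1 sites, in 8.54% and 3.49%, and the palindrome CTCGCGAG in 9.76% and 1.74%. The GC box letters GGGCGG were about as frequent in member windows (61.0%) as in all (63.5%), and TATAAA on the gene strand was in 7.32% and 4.05%. These matches describe letters in a window and not binding sites.

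Nearly all ribosomal protein genes had higher values in HSA-LR than in WT muscle, by a similar and moderate amount. Of the 86 members, 85 passed the filter on low counts (the exception was Rps27rt), and 58 were called higher and 0 lower at a Benjamini-Hochberg adjusted p below 0.05 in edgeR's quasi-likelihood test (79 higher and 0 lower at an unadjusted p below 0.05). Over all 13576 genes tested, 4.28% were called higher and 7.48% lower. The median log2 fold change of the members was 0.63 (interquartile range 0.50 to 0.76), against 0.04 for all tested genes, and 83 members had a positive value, against 52.9% of all genes. For 79 members every HSA-LR library lay above every WT library in CPM (counts scaled by library size), which held for 17.8% of all genes. The adjusted p-values of the 58 calls ran from 0.00662 to 0.0495, so many lay close to the threshold, and leaving out a single library could end them. Without WT replicate 1 or 2, edgeR called 0 members (0.3% and 0.35% of all genes higher), although 72 and 70 had an unadjusted p below 0.05, and without WT replicate 3 or HSA-LR replicate 3 it called 1 (0.343% and 0.361%). The median log2 fold change in these fits was 0.59 to 0.66. With all libraries, DESeq2 called 79 members higher (8.57% of all genes) and limma-voom 61 (3.35%), and both called 0 lower.

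**Figure D1:**
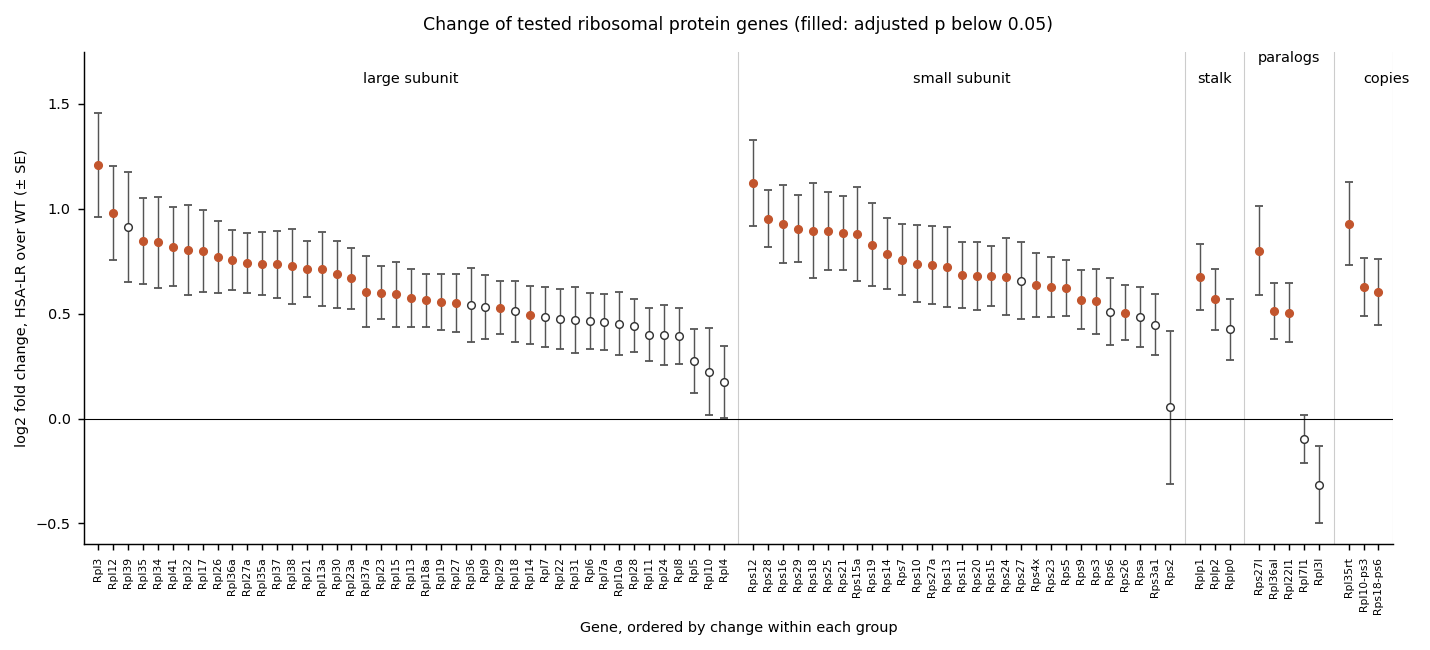
Each point is the log2 fold change of a ribosomal protein gene (2 tested genes are not drawn), HSA-LR over WT (vertical axis, ± SE, 3 libraries per group), by gene group and in order of size along the horizontal axis. Filled points are the 58 genes called higher; only the paralogs Rpl7l1 and Rpl3l lie below 0.

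The libraries themselves differed in ways that moved with the group. Totals ranged from 11468959 to 15023710 counts. The 7SL and 7SK RNAs, abundant small non-coding RNAs, took 14.1% to 15.5% of the counts in WT and 18.8% to 43.9% in HSA-LR, most in HSA-LR replicate 1, which stood apart. Summed CPM of 10 skeletal muscle marker genes (among them Ckm and the fast myosin genes) ran from 225520 to 258404 in WT and from 85465 to 172683 in HSA-LR, with 0 of the 10 called by edgeR (2 lower at an unadjusted p below 0.05, and 2 called lower by DESeq2 and 1 by limma-voom). The 8 macrophage markers summed to 139 to 161 CPM in WT and 205 to 615 in HSA-LR, and the 7 fibroblast markers to 2560 to 2698 and 3287 to 9060.2. Of the macrophage markers, edgeR called 4 higher, DESeq2 7 and limma-voom 2, and of the fibroblast markers 2, 5 and 0. Over all genes, these methods called 4.28%, 8.57% and 3.35% higher. Those 3 lists were each furthest from WT in HSA-LR replicate 1. Blood markers (5) summed to 355 to 601 CPM in WT and 389 to 2046 in HSA-LR, adipocyte markers (4) to 71.4 to 391 and 190.2 to 1168, and endothelial markers (5) to 136 to 158 and 128 to 196. Satellite cell markers (4, of which 2 were tested) reached 9.42 CPM and Schwann cell markers (4, 3 tested) 19.0 CPM at most, and edgeR, DESeq2 and limma-voom called 0 genes in these 5 lists (2 satellite cell genes were higher at an unadjusted p below 0.05). None of the listed markers was at 0 in all libraries, and the part of cell makeup in the ribosomal protein values was not tested. In bulk tissue, fewer cells of a type and less RNA per cell cannot be told apart.

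Seen by library, the median over members of the log2 difference to the WT mean came to -0.03, -0.04 and 0.05 in the WT libraries and 0.81, 0.47 and 0.53 in HSA-LR replicates 1, 2 and 3. HSA-LR replicate 1 held the highest value of the 6 libraries for 69 of the 85 tested members. The other HSA-LR libraries nevertheless lay above the WT mean for 84 and 83 members. Without HSA-LR replicate 1 the median log2 fold change was 0.52 and 71 members were called higher, against 5.94% of all genes. Without HSA-LR replicate 2 they were 0.70 and 75 (10.6% of all genes). The members took 1.38%, 1.46% and 1.50% of protein coding counts in the WT libraries and 3.73%, 2.33% and 2.72% in HSA-LR. The means were 1.45% ± 0.0620 in WT and 2.93% ± 0.720 in HSA-LR (SD, n = 3), which do not overlap (exact two-sided permutation test, p = 0.1, the smallest that 3 against 3 allows). As a share of all counts the means were 1.17% ± 0.0433 and 1.89% ± 0.0906.

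Small subunit genes included the lowest p-values. Rps28, which encodes a small protein near the mRNA exit of the 40S subunit, had 67.6, 64.8 and 72.0 CPM in WT, against 147, 118 and 130.2 in HSA-LR. Its log2 fold change was 0.95 ± 0.14 (SE, edgeR adjusted p = 0.00662), the lowest p of the members. Rps28 lies at chr17:34034199-34043536 on the minus strand, with a mean transcript length of 385 bases. Rps29, a zinc-binding protein of the 40S head, rose from 124 ± 5.29 to 233 ± 40.2 CPM (SD, n = 3; edgeR log2 fold change 0.91 ± 0.16 with adjusted p = 0.0126).

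Rps12, which sits in the beak of the 40S subunit, rose most among the small subunit genes. It had 122, 125 and 128 CPM in WT, against 364, 214 and 238 in HSA-LR, a log2 fold change of 1.12 ± 0.20 (adjusted p = 0.0137 by edgeR). The WT libraries were within a few CPM of each other and HSA-LR replicate 1 was well above the other 2. Rps25, which takes part in internal ribosome entry, had 209, 219 and 219 CPM against 514, 344 and 345 CPM (edgeR log2 fold change 0.89 ± 0.19 with adjusted p = 0.0207). Rps21, Rps16 and Rps15 were also among the lowest p-values, with log2 fold changes of 0.89, 0.93 and 0.68.

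In all, 24 of 31 small subunit genes were called higher, with a median of 0.68. The others, among them Rps2, Rps3a1, Rps6, Rps27 and Rpsa, all had positive values. Rpsa, also known as the laminin receptor, had 348, 398 and 375 CPM in WT, against 525, 537 and 504 in HSA-LR, and its log2 fold change of 0.48 ± 0.14 was not called (edgeR adjusted p = 0.0575) although the groups did not overlap. Rps6, whose protein is the classic phosphorylation target of S6 kinase, had a log2 fold change of 0.51 ± 0.16 (adjusted p = 0.0687 by edgeR). Rps27a, which encodes ubiquitin fused to a 40S protein, had 114, 111 and 119 CPM against 247, 172 and 153 CPM and rose (edgeR log2 fold change 0.73 ± 0.19 with adjusted p = 0.0395). Rps19, the gene most often mutated in Diamond-Blackfan anaemia, rose by 0.83 ± 0.20 (edgeR adjusted p = 0.0319).

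Of the large subunit genes, 26 of 43 were called higher, with a median of 0.57. Rpl3, which helps to shape the peptidyl transferase centre, had the largest change of all members. Its level was 10.9, 14.3 and 15.7 CPM in WT, against 43.5, 22.9 and 28.3 in HSA-LR, a log2 fold change of 1.21 ± 0.25 (adjusted p = 0.0216 by edgeR). Leaving out HSA-LR replicate 1 gave 0.92 (adjusted p = 0.00799 by edgeR), while it was 0.65 and not called with the percentage of 7SL and 7SK counts as a covariate (edgeR adjusted p = 0.0636). Rpl21 had 156, 163 and 172 CPM against 287, 252 and 267 CPM (edgeR log2 fold change 0.71 ± 0.13 with adjusted p = 0.0149).

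Rpl36a, Rpl27a and Rpl35a followed by p, with log2 fold changes of 0.75 ± 0.14, 0.74 ± 0.14 and 0.74 ± 0.15 (edgeR adjusted p = 0.0158, 0.0167 and 0.0195). In Rpl36a the WT libraries held 44.7, 43.6 and 44.8 CPM and the HSA-LR libraries 88.8, 69.1 and 66.7 CPM. Rpl13a, known for a role in translational silencing outside the ribosome, rose from 239 ± 7.58 to 391 ± 81.9 CPM (edgeR log2 fold change 0.71 ± 0.17 with adjusted p = 0.0342). Rpl5 and Rpl11, which with 5S rRNA form the particle that binds Mdm2, had log2 fold changes of 0.28 ± 0.15 and 0.40 ± 0.13 and were not called (edgeR adjusted p = 0.242 and 0.0693).

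At the other end stood Rpl4, with 356, 344 and 379 CPM in WT, against 342, 495 and 379 in HSA-LR. The groups overlapped and the log2 fold change was 0.17 ± 0.17 (edgeR adjusted p = 0.515). The other large subunit genes not called were Rpl6, Rpl7, Rpl7a, Rpl8, Rpl9, Rpl10, Rpl10a, Rpl18, Rpl22, Rpl24, Rpl28, Rpl31, Rpl36 and Rpl39, all with positive values. Among the stalk genes, whose proteins recruit translation factors, Rplp1 and Rplp2 rose by 0.67 ± 0.16 and 0.57 ± 0.15 (edgeR adjusted p = 0.0289 and 0.0394). Rplp0 had 504, 524 and 532 CPM in WT, against 669.7, 747 and 678 in HSA-LR, and its log2 fold change of 0.43 ± 0.15 was not called (edgeR adjusted p = 0.0829). Core genes with a small nucleolar RNA gene inside them had a median of 0.67 (30 genes) and those without 0.63 (47 genes).

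**Figure D2:**
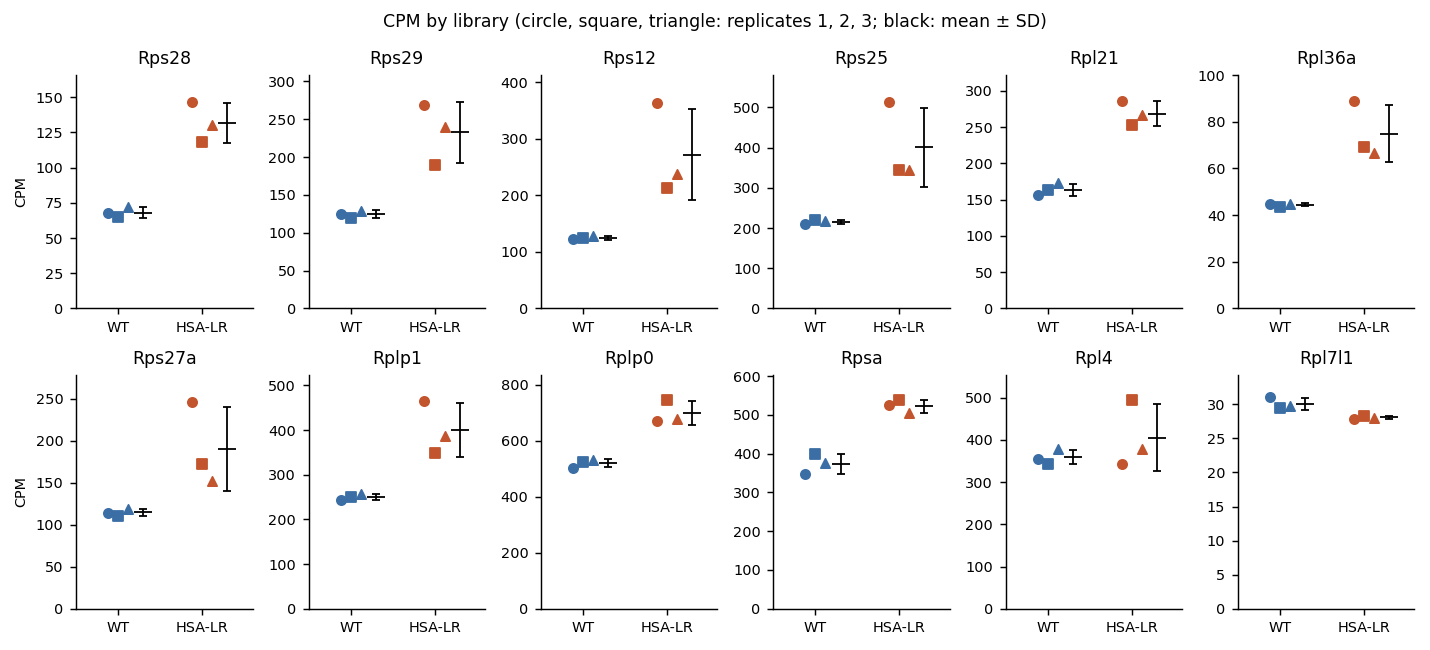
CPM (vertical axis, from 0) of 12 members in each library, with circle, square and triangle for replicates 1, 2 and 3 and black marks for the mean ± SD of 3 libraries. The groups are apart for the 10 genes from Rps28 to Rpsa and overlap for Rpl4, and Rpl7l1 is slightly lower in HSA-LR.

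On the TPM scale, which corrects counts for transcript length and library size, the most abundant member in WT was Rps27 at 502 ± 18.6 TPM (SD, n = 3), followed by Rplp1 (449 ± 21.9) and Rps24 (448 ± 17.2), with Rps25 (387 ± 20.7) also among the 5 highest. Rps27 lay above the next genes by more than its spread, while Rplp1 and Rps24 differed by less than theirs. Rps27 itself had a log2 fold change in counts of 0.66 ± 0.18 that narrowly missed the call (edgeR adjusted p = 0.0501). The median over members was 156 TPM. The lowest were Rps2 (1.50 ± 0.640 TPM), Rps27rt (1.56 ± 1.86), Rpl12 (3.20 ± 0.297), Rps18 (4.69 ± 1.05) and Rpl5 (6.17 ± 0.514). The core genes' log2 fold changes had no clear relation to WT TPM (Spearman's rho across 77 genes -0.04, a description, since the genes share libraries).

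For 4 of these 5 genes, most reads of the family were listed at near-identical copies. Mammalian genomes hold many processed pseudogenes of ribosomal protein genes, and the counting divided reads that match several places between them. Searching the annotated transcripts for copies of at least 90% identity to at least 80% of a member's coding part, within genes of up to 5 kb, gave 939 copies of 73 of the 82 members with introns. In 41 members over 99% of the counts of gene and copies together were listed at the gene, but 23 held under 90% and 5 under 10%. Rps2 held 0.301% of its family's counts, with a mean of 6801 counts at Gm58349, a non-coding gene whose copy is 99.4% identical. Rpl12 held 2.94% and Rpl5 5.33%, with 3345 and 3665 counts at Gm68527 and Gm70833, both identical over the coding part. Rps18 held 2.13% and Rpl10 8.07%, with Rps18-ps6 and Rpl10-ps3, themselves members, listed at 1699 and 4300 counts. The copies' share over all families differed little, at 16.3% to 16.5% in WT and 15.9% to 16.2% in HSA-LR, although all HSA-LR libraries lay below all WT libraries.

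Adding the counts of these copies to the gene, a setting chosen after seeing the data, left 82 members tested, and 60 of them were called higher (4.26% of all genes), including all 55 called before other than the copies. Rpl5, Rpl10, Rpl10a, Rpl11 and Rps6 gained the call. Rpl10 moved from 0.22 ± 0.21 to 0.60 on the log2 scale (edgeR adjusted p = 0.0304), and Rpl5 from 0.28 to 0.52 (edgeR adjusted p = 0.0420). In the other direction, Rpl12 moved from 0.98 to 0.61 and Rps18 from 0.90 to 0.62, both called in either fit. Summed in this way Rpl12 stood at 208 CPM in WT, against 318 in HSA-LR, and Rps18 at 169 and 259 CPM. The Rps2 family, at 459, 471 and 508 CPM in WT, against 564, 561 and 520.4 in HSA-LR, had a log2 fold change of 0.19 and stayed uncalled (edgeR adjusted p = 0.374). For members with a small share of their family, the gene and copy values are uncertain.

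**Figure D3:**
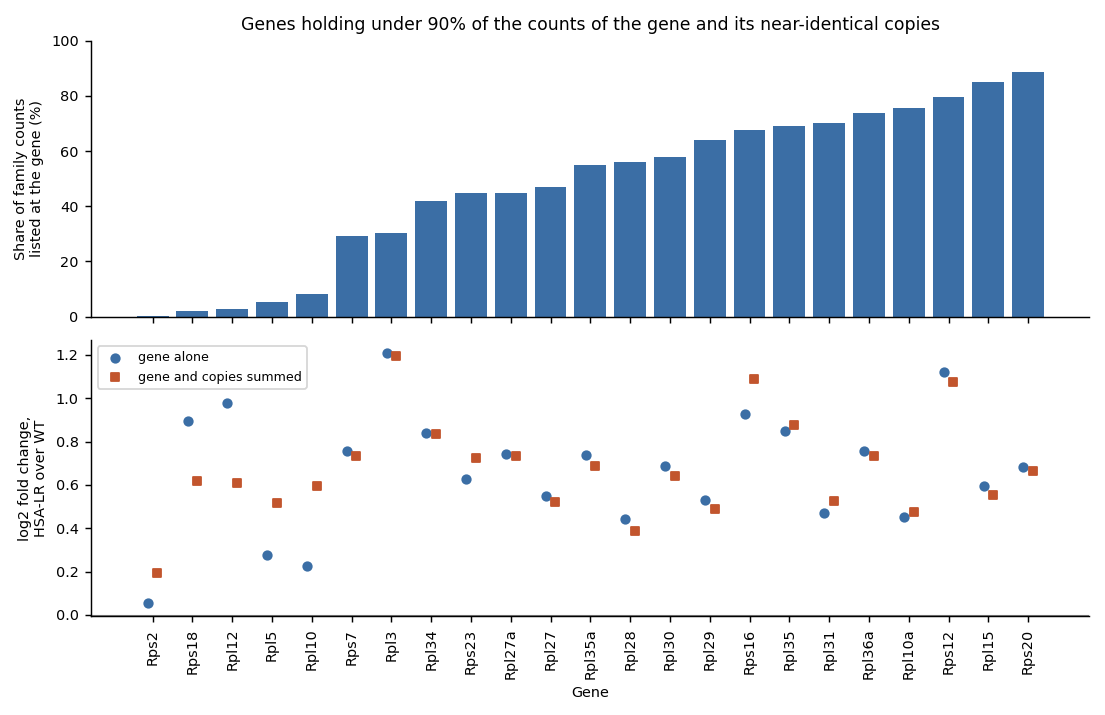
For the 23 members holding under 90% of the counts of the gene and its near-identical copies, the upper bars give the gene's share of these counts (percent, mean of 6 libraries) and the lower points the log2 fold change, HSA-LR over WT, of the gene alone and of gene and copies summed. The points are furthest apart in Rpl10, Rpl12, Rps18 and Rpl5, all with a share under 10%, and Rpl10 and Rpl5 move up while Rpl12 and Rps18 move down.

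Among the intronless copies, Rpl35rt had 39.9, 50.5 and 45.1 CPM in WT, against 113, 68.6 and 76.6 in HSA-LR (edgeR log2 fold change 0.93 ± 0.20 with adjusted p = 0.0225). Rpl10-ps3 and Rps18-ps6 had log2 fold changes of 0.63 ± 0.14 and 0.61 ± 0.16 (edgeR adjusted p = 0.0248 and 0.0406). Each shares reads with its intron-containing parent, so their calls do not add to the parents' calls. Rps27rt was listed at 0.168, 1.23 and 0.178 CPM in WT, against 3.71, 0.00 and 0.00 in HSA-LR. With its HSA-LR counts all in 1 library it did not pass the filter on low counts.

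The 2 members with a negative log2 fold change were both paralogs. Rpl3l, which replaces Rpl3 in ribosomes of skeletal muscle and heart, had 95.7, 86.0 and 98.9 CPM in WT, against 59.3, 96.5 and 69.6 in HSA-LR. The groups overlapped through HSA-LR replicate 2, and the log2 fold change of -0.32 ± 0.18 was not called (edgeR adjusted p = 0.266), but without HSA-LR replicate 2 it was -0.54 and called lower (edgeR adjusted p = 0.0203). Rpl7l1, a pre-ribosomal factor related to Rpl7, had 31.0, 29.4 and 29.7 CPM against 27.9, 28.2 and 28.1 CPM. All HSA-LR libraries were lower, as in 20% of all genes, with a log2 fold change of -0.10 ± 0.11 (adjusted p = 0.583 by edgeR). Rps27l, a p53 target, rose from 52.0 ± 3.50 to 90.7 ± 29.4 CPM (0.80 ± 0.21 on the log2 scale, edgeR adjusted p = 0.0432), Rpl36al by 0.51 ± 0.13 and Rpl22l1 by 0.50 ± 0.14 (edgeR adjusted p = 0.0401 and 0.0492).

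Set against its parent on the TPM scale, Rpl3l lay above the value listed at Rpl3 alone in every library. Most counts of the Rpl3 family were listed at a copy, and the ratio with copies counted, given below, was not above 0 in every library. The log2 ratio of Rpl3l to Rpl3 was 3.00, 2.68 and 2.71 in WT and 0.46, 2.08 and 1.34 in HSA-LR. The means were 2.80 ± 0.179 and 1.29 ± 0.814 (SD, n = 3), a difference of -1.50 with no overlap (exact permutation test, p = 0.1, the smallest possible, and 0.35 after Benjamini-Hochberg adjustment over 7 paralog ratios). Without HSA-LR replicate 1 the difference was -1.09. Of 7 paralog pairs that could be measured, the ratio of Rpl7l1 to Rpl7 also separated the groups, with -4.08 ± 0.0713 in WT and -4.88 ± 0.254 in HSA-LR (exact permutation test, p = 0.1 and 0.35 adjusted). Rpl7l1 has the longer transcripts of this pair (mean 1993 and 1144 bases). With the dependence on length, described below, taken out, their log2 fold changes in counts moved from -0.10 and 0.48 to -0.17 and 0.25. The part of length in this ratio was not tested. The ratios of Rpl22l1 to Rpl22, Rps27l to Rps27, Rpl36al to Rpl36a, Rpl39l to Rpl39 and Rps4l to Rps4x overlapped between groups, with exact permutation p between 0.4 and 1. Rpl39l and Rps4l were at or below 1.26 TPM in all libraries, and Rpl10l was listed at 0.

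The Rpl3 values rest on a division of reads with Rpl3-ps1, a pseudogene on the X chromosome that differs from the 1209 bases of the Rpl3 coding sequence at 2 positions, giving 99.8% identity. With positions counted from the A of the start codon and the Rpl3 base first, these are C57A and T786C. Both are printed in capitals within the surrounding coding bases of gene and copy, to show how little sequence separates their reads.

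Rpl3 at 57: ggcttcctgcctcgCaagcgcagcagccg

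Rpl3-ps1 at 57: ggcttcctgcctcgAaagcgcagcagccg

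Rpl3 at 786: caccctgcccgtgtTgccttctctgtggc

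Rpl3-ps1 at 786: caccctgcccgtgtCgccttctctgtggc

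Rpl3-ps1 held more counts than Rpl3 in each library. It had 27.8, 34.5 and 33.8 CPM in WT, against 107, 44.6 and 67.0 in HSA-LR (edgeR log2 fold change 1.18 ± 0.29 with adjusted p = 0.0414). Gene and copies summed gave 38.7, 48.8 and 49.4 CPM in WT, against 150.5, 67.6 and 95.4 in HSA-LR, or 1.19 on the log2 scale (edgeR adjusted p = 0.0329). Against this sum, the log2 ratio of Rpl3l counts was 1.31, 0.82 and 1.00 in WT and -1.34, 0.51 and -0.45 in HSA-LR. The groups again did not overlap (difference -1.47, exact permutation test, p = 0.1), but with the copies counted the Rpl3 family exceeded Rpl3l in HSA-LR replicates 1 and 3.

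**Figure D4:**
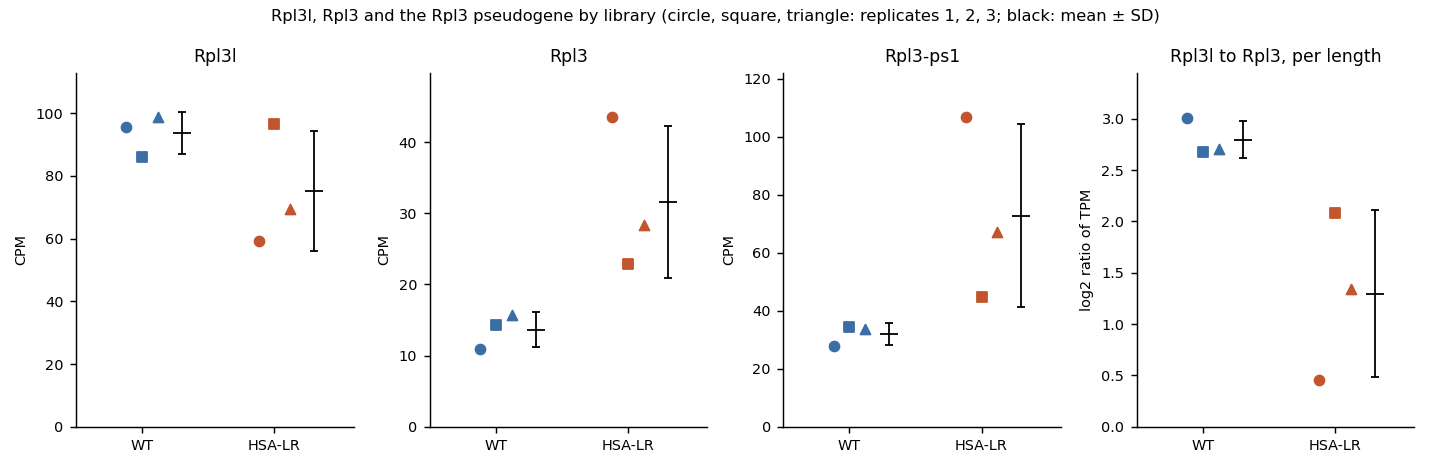
CPM of Rpl3l, Rpl3 and the pseudogene Rpl3-ps1, and the log2 ratio of Rpl3l to Rpl3 in TPM (vertical axes, from 0), in each library, with circle, square and triangle for replicates 1, 2 and 3 and the mean ± SD of 3 libraries in black. Rpl3 and Rpl3-ps1 are higher and the ratio is lower in all HSA-LR libraries, and HSA-LR replicate 1 is furthest from WT in each panel.

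The log2 ratio of summed large subunit and stalk TPM to summed small subunit TPM was 0.37, 0.37 and 0.39 in WT and 0.23, 0.33 and 0.29 in HSA-LR. The means of 0.38 ± 0.0122 and 0.28 ± 0.0518 (SD, n = 3) did not overlap (exact permutation test, p = 0.1), a difference of -0.09. Taken between the medians of log2 TPM in place of sums, the difference was -0.20 (exact permutation test, p = 0.1). Large subunit genes had longer transcripts than small subunit genes (medians 733 and 595 bases). Across the 77 core genes the log2 fold change in counts fell with length (Spearman's rho -0.42, a description). The part of transcript length in the subunit ratio was not tested. The ratio used the values listed at the genes alone, so Rps2, Rps18, Rpl12, Rpl5 and Rpl10, with most family counts at copies, entered with low values. It was not computed with copies added.

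Transcript length moved with the change. The members' mean transcript lengths ran from 346 bases (Rps27) to 1993 bases (Rpl7l1), with a median of 613, and across all protein coding genes short transcripts had higher log2 fold changes than long ones. In the shortest of 8 equal classes of tested protein coding genes (180 to 1181 bases), which held 76 of the 85 tested members, the other 1462 genes had a median of 0.28, and 8.34% were called higher. The members there had a median of 0.66, and 56 of 76 (73.7%) were called higher. In the next class, up to 1597 bases, the medians were 0.45 for 8 members and 0.13 for the others. Within the members the log2 fold change also fell with length (Spearman's rho across 85 genes -0.46, a description, since they share libraries).

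Narrower bands of length gave the same order. Between 450 and 550 bases the median log2 fold change was 0.71 for 17 members and 0.49 for 73 other protein coding genes, of which 19.2% were called higher. Between 550 and 650 bases it was 0.72 for 19 members and 0.37 for 96 other genes, and between 650 and 800 bases 0.56 for 16 members and 0.33 for 263 others. Over 7 bands from 300 to 1600 bases, 81 of 84 members lay above the median of the other genes in their band. Limited to other genes of at least 20 CPM, the bands' medians were 0.45, 0.35 and 0.24 for these 3 ranges.

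After the dependence on transcript length was taken out of every library, the members' median log2 fold change fell to 0.28 (all genes -0.04) and 81 of 85 stayed positive, but 3 were called higher (2.4% of all genes). These were Rps28 (0.53, edgeR adjusted p = 0.0424), Rps12 (0.71, edgeR adjusted p = 0.0381) and Rpl3 (1.05, edgeR adjusted p = 0.0381). The trend was fitted with the members included. On deposited TPM, where the median of all genes shifted to -0.46, the members' median was 0.05, which is 0.52 above that of all genes, and 0 were called by limma, with 0 at an unadjusted p below 0.05 (0.368% of all genes called higher). When the percentage of 7SL and 7SK counts entered as a covariate, 21 members were called higher (2.67% of all genes) and the median was 0.41. An offset for effective length gave 28 (1.86%) and a median of 0.60, and a block for the replicate number 13 (1.87%) and 0.62.

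**Figure D5:**
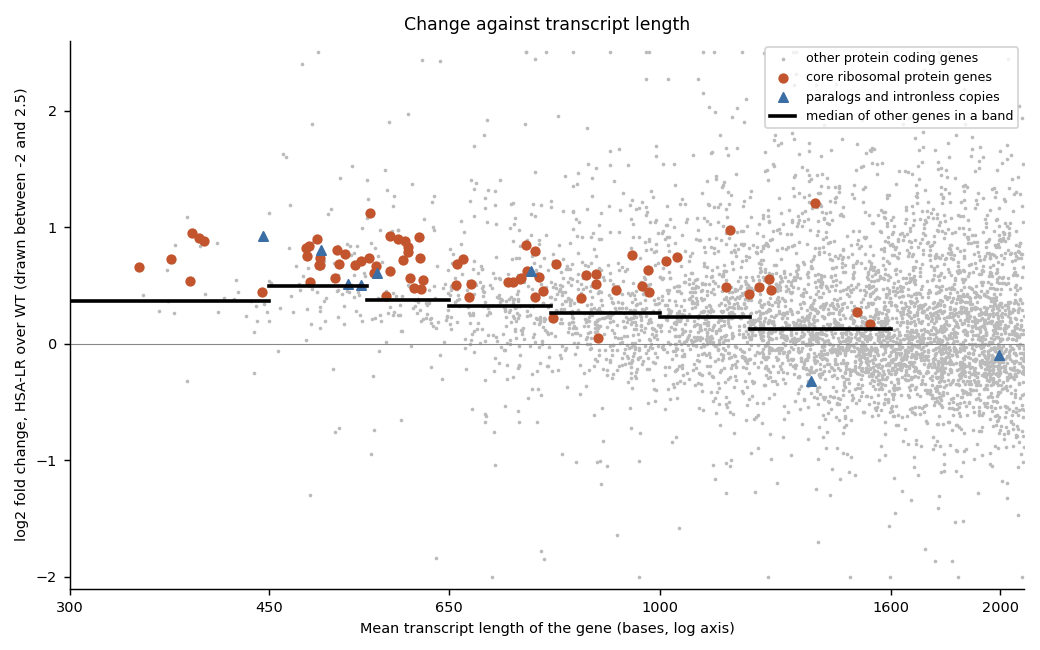
Log2 fold change, HSA-LR over WT (vertical axis), against mean transcript length in bases (horizontal log axis) for tested protein coding genes, with core ribosomal protein genes as orange points, paralogs and intronless copies as blue triangles and others in grey (values outside -2 to 2.5 drawn at these limits). Black bars are the medians of the other genes in 7 bands of length, from 0.49 between 450 and 550 bases to 0.13 between 1200 and 1600, and 81 of 84 members in these bands lie above them.

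Other genes of translation did not all move with the members. Ribosomal proteins with other symbols had values near those of the members. Fau, a ubiquitin-like protein fused to a 40S protein, rose by 0.76 ± 0.16 (edgeR adjusted p = 0.0203), while Rack1, a scaffold on the 40S subunit, had 0.47 ± 0.14 and was not called (edgeR adjusted p = 0.0594). The 78 mitochondrial ribosomal protein genes are also short (median 969.6 bases). Of these, edgeR called 3 higher, a share close to the 4.28% of all genes, and 0 lower. At an unadjusted p below 0.05 in edgeR, 16 were higher and 2 lower. DESeq2 called 5 higher and limma-voom 3 (8.57% and 3.35% of all genes), and both called 0 lower. A positive log2 fold change was found in 62 of the 78, against 52.9% of all genes. Their median was 0.20, and -0.06 with the length trend removed. The 3 called by edgeR were Mrpl41, Mrps36 and Mrpl53, with log2 fold changes of 0.69 ± 0.15, 0.47 ± 0.12 and 0.48 ± 0.12.

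Of 18 other TOP mRNAs, a list that includes Fau and Rack1, edgeR called 3 higher and 1 lower (4.28% and 7.48% of all genes). At an unadjusted p below 0.05 in edgeR, 5 were higher and 2 lower. DESeq2 called 5 higher and 1 lower, and limma-voom 2 and 1. A positive log2 fold change was found in 14 of the 18, against 52.9% of all genes. The median was 0.04, and -0.08 with the length trend removed. The elongation factor gene Eef1a1, the form of most tissues other than mature muscle, had 287, 358 and 354 CPM in WT, against 1051, 421 and 728 in HSA-LR (edgeR log2 fold change 1.14 ± 0.30 with adjusted p = 0.0469). This call was lost without any 1 library other than HSA-LR replicate 2 (0.80 with HSA-LR replicate 1 left out, and 1.05 to 1.19 with HSA-LR replicate 3 or a WT library left out, edgeR adjusted p = 0.0527 to 0.171) and in limma-voom (adjusted p = 0.0588). With the percentage of 7SL and 7SK counts as a covariate the value was 0.43 (edgeR adjusted p = 0.273). Eef1b2, an exchange factor of the same complex, had 81.3, 84.0 and 88.9 CPM against 140.2, 133 and 131 CPM (0.67 ± 0.12, edgeR adjusted p = 0.0140). Nap1l1, a histone chaperone, fell by 0.56 ± 0.12 on the log2 scale (edgeR adjusted p = 0.0249).

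Of 18 genes that govern TOP mRNA translation, edgeR called 0 higher and 8 lower (4.28% and 7.48% of all genes), with a median of -0.45. At an unadjusted p below 0.05 in edgeR, 1 was higher and 10 lower, and DESeq2 and limma-voom each called 0 higher and 8 lower. A positive log2 fold change was found in 4 of the 18, against 52.9% of all genes. The list also holds genes of mTORC1 itself, such as Mtor and Rptor, and the genes named below were picked by p. Larp1, the TOP-binding repressor, fell from 104, 90.6 and 88.1 CPM in WT to 38.3, 51.9 and 50.9 CPM in HSA-LR (edgeR log2 fold change -1.003 ± 0.156 with adjusted p = 0.00844). Eif4ebp2, which binds eIF4E and represses translation, had 187, 149 and 177 CPM against 41.8, 60.7 and 57.1 CPM (-1.69 ± 0.18, edgeR adjusted p = 0.00299). Tsc1 and Tsc2, the brake on mTORC1, had log2 fold changes of -0.83 ± 0.15 and -0.82 ± 0.14 (edgeR adjusted p = 0.0148 and 0.0101). These mRNAs are long (median 3315 bases), and with the length trend removed 4 of the 18 were called lower (5.58% of all genes), with a median of -0.38.

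Of 42 ribosome biogenesis factors, edgeR called 0 higher and 4 lower, a share close to the 7.48% of all genes called lower, with a median of -0.16 (2 higher and 10 lower at an unadjusted p below 0.05, 1 and 3 called by DESeq2, and 0 and 3 by limma-voom). Ncl (nucleolin), Nat10, Mdn1 and Gnl2 had log2 fold changes of -0.46 ± 0.12, -0.54 ± 0.14, -0.48 ± 0.13 and -0.45 ± 0.13 (edgeR adjusted p = 0.0395, 0.0414, 0.0428 and 0.0485). In Ncl the WT libraries held 37.2, 37.4 and 34.4 CPM and the HSA-LR libraries 26.6, 26.5 and 26.3 CPM. With the length trend removed, 1 of the 42 factors was called lower (5.58% of all genes) and 0 higher, with a median of -0.21. Among 5 genes tied to 5S rRNA and p53, Myc, a driver of ribosome production, was low but higher in HSA-LR, with 1.63, 1.46 and 1.71 CPM against 3.61, 4.03 and 4.50 CPM (edgeR log2 fold change 1.34 ± 0.28 with adjusted p = 0.0207). Mdm2, the p53 ligase bound by Rpl5 and Rpl11, fell by 0.68 ± 0.16 on the log2 scale (edgeR adjusted p = 0.0303).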

How the data were processed

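Total RNA from quadriceps was extracted with TRIzol, and stranded libraries were made after rRNA removal, per the labels. GRCm39, Bowtie2 and RSEM 1.3.1 are named in the submitters' processing notes. No source used here gives the annotation release. Each sample has a table deposited by the authors, holding expected counts (RSEM's estimates, in which multi-mapping reads are divided), TPM, FPKM (not used), and gene length and effective length in bases per library. Since the study's methods cover other libraries, they did not set the test.

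GENCODE M39 (GRCm39) gave symbols and coordinates, and the genome of that build gave the sequences. Expected counts were rounded, filtered with filterByExpr, scaled by TMM and tested with edgeR 4.0.16 (robust quasi-likelihood F test, R 4.3.3), adjusted by Benjamini-Hochberg over 13576 genes and called below 0.05. Dividing the size of a log2 fold change by the root of its F gave the SE. A count of 3 corresponds to 0.200 to 0.262 CPM per library, and such limits cover counting error only. Single values were compared by exact permutation over samples. Copies were found with BLAST. Procedures were tested on simulated counts. No 2 libraries agreed within sampling noise.

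Members and lists were chosen with earlier results of these data known. Named genes were the 12 called members with the lowest p, paralogs with parents, 10 well studied members, the 5 highest and 5 lowest by WT TPM and up to 4 called genes per list. Some genes that the rule picks are not reported here. Others are named as complete groups or, for copies, after their values were seen. Alternatives included DESeq2 1.42.0, limma-voom and limma-trend on log2(TPM + 0.1) (limma 3.58.1), other scalings and filters, length corrections, pseudogene counts, a replicate block and each library left out.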

Additional observations from a re-analysis of the deposited data

How the results depend on the processing

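The count of 58 ribosomal protein genes called higher was within 1.5 times of that with DESeq2, limma-voom, RLE and upper-quartile factors, other filters, protein coding library sizes and added copies or named pseudogenes. It fell to 21 with the percentage of 7SL and 7SK counts as a covariate, 28 with an effective length offset, 3 with the length trend removed and 0 on log2(TPM + 0.1), with all genes called at 935, 742, 1084 and 519 (DESeq2 2428). The median log2 fold change was 0.41, 0.28 and 0.0521 with the covariate, the length trend removed and TPM, and between 0.60 and 0.68 in the other settings using all libraries. With each library left out in turn, 0 to 75 members were called higher and 0 to 1 lower (Rpl3l, without HSA-LR replicate 2), 166 to 3294 genes were called in all, and the median was 0.52 to 0.70. The causes were not tested.

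Replicate numbers did not pair the samples (same-number correlations 0.00, -0.09 and 0.23), and not every sample correlated best with its own number. The fit with the replicate number as a block called 13 members and 799 genes, with 2 fewer residual degrees of freedom.

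Differences in the share of protein coding counts (1.08 to 1.78 percentage points), in the subunit ratio (-0.11 to -0.06) and in the ratio of Rpl3l to Rpl3 (-1.90 to -1.09) kept their direction without each library and under all other settings run, where no p can pass 0.05.

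Of 1100 repeats for the single named genes, 310 lost and 52 gained a call and 19 changed sign, with no call after the change. On TPM the log2 fold changes of Rpl36al (-0.0688), Rpl7 (-0.0813), Rpl10 (-0.351), Rplp0 (-0.135), Rpsa (-0.0603), Rps6 (-0.0696), Rpl5 (-0.237), Rpl11 (-0.217), Rps2 (-0.732), Mrps36 (-0.152), Mrpl53 (-0.0920) and Rack1 (-0.131) turned negative, where the median of all genes was -0.46. Rpl10 also turned with the length trend removed (-0.0909), and ran from -0.00939 to 0.356 as single libraries were left out. Rps2 also turned with the effective length offset (-0.324), the length trend removed (-0.235) and named pseudogenes added (-0.0133), and ran from -0.0820 to 0.217 as single libraries were left out.

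At this size, calls for changes near 0.6 on the log2 scale lie close to the threshold, so an uncalled member is not shown to differ from a called one. For genes with near-identical copies, gene values depend on how reads were divided.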
